A study of Mus musculus with 12 samples.

Results

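The genes measured here are the core of the Hedgehog pathway: the ligands Dhh, Ihh and Shh, the receptors Ptch1 and Hhip, the transducer Smo and the transcription factors Gli1, Gli2 and Gli3. These 9 genes were taken by their symbols from the 32285 genes counted in each library, and each symbol was found once. Of the 9, 7 had enough unique molecular identifiers (UMIs, each a counted transcript molecule) to be tested in supporting cells and 6 in interstitial cells. Ihh and Shh were too low for a test in either cell type, and Hhip was too low in interstitial cells.

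A Hedgehog ligand leaves the cell that makes it and binds the receptor PTCH1 on a neighbouring cell, which frees the membrane protein SMO to signal to the GLI transcription factors. GLI2 and GLI3 are present before the signal arrives, while Gli1, Ptch1 and Hhip are themselves switched on by it and serve as readouts of a response. In the fetal testis, DHH made by Sertoli cells acts on interstitial cells and takes part in the formation of fetal Leydig cells. PTCH1 and HHIP also bind ligand and so hold it back.

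The study followed mouse fetal gonads that lacked 1 of the 2 splice variants of the transcription factor WT1, named -KTS and +KTS after the amino acids lysine, threonine and serine that the longer form contains. XX and XY gonads of embryonic day 12 (23 ± 3 tail somites) were sequenced from wild-type (WT), -KTS KO and +KTS KO embryos, with 2 libraries in each of the 6 groups. Both KO lines carried germline mutations at the Wt1 locus, so that every cell of the embryo was mutant, and the remaining variant was still made. In +KTS KO gonads the paper reports -KTS transcripts above the control level, and in XY ones a similar amount of WT1 protein in total. A change in the +KTS KO thus goes with loss of +KTS and with a rise of -KTS, which these libraries cannot tell apart. The gonads had been dissected from the mesonephros, but 72 cells with mesonephric duct markers remained, 71 of them in XY +KTS KO replicate 2. Each -KTS KO library pooled the gonads of several embryos.

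The 12 libraries held between 108111924 and 147968666 UMIs, and 76975 cells were kept. Ddx3y, a Y-linked gene, had no UMI in the gonadal somatic cells of the XX libraries and lay between 41.0 and 63.2 UMIs per 1000000 of the cells' UMIs (CPM) in the XY libraries, as the labels say. Wt1 lay between 158 and 309 CPM in the gonadal somatic cells of the 12 libraries, but its counts do not tell the splice variants apart and so check nothing about the mutations. Pairs of libraries shared between 2 and 32 cell barcodes, and cells were never compared across libraries by barcode. The study's methods call the 2 replicates of a genotype independent, but the labels do not say whether they came from separate animals, so p-values measure the spread between libraries, which may be partly technical.

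Cells were grouped into 36 clusters without the use of the Hedgehog genes. Among them, 8 clusters (19439 cells) had the markers of the supporting lineage, which gives rise to Sertoli cells in the testis and granulosa cells in the ovary. Another 6 clusters (19473 cells) had the markers of interstitial progenitors. They are called supporting and interstitial cells in what follows, although such names rest on markers alone. A pair of clusters (7918 cells) was led by Cyp11a1, which encodes the first enzyme of steroid synthesis, and was kept apart. It also met the marker rule of the supporting lineage, but had more fetal Leydig than supporting markers among its leading genes. The paper names the supporting clusters that it found in +KTS KO gonads pre-granulosa cells, and their overlap with this pair was not checked. The +KTS KO supporting cells described below leave the pair out, and numbered 391 and 131 in the XX and 3278 and 230 in the XY libraries. Nearly all cells of the pair led by Cyp11a1 came from +KTS KO gonads, with 5120 cells in XX and 2741 in XY, of which 2682 came from XY +KTS KO replicate 2 and 59 from replicate 1.

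A further 7594 cells in 5 clusters stayed unnamed and entered neither class. They made up between 24.7% and 36.5% of the kept cells of each -KTS KO library, and between 0.365% and 5.20% of those of the 8 other libraries. Gonadal somatic cells, as named here, are all kept cells outside the germ, endothelial, erythrocyte, immune, perivascular and mesonephric duct clusters. The unnamed cells are among them.

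Different clusters held most of a class in different groups, and each comparison between groups has to be read with that. Supporting cells of XX WT lay mainly in cluster 3 (77.3% and 79.7% of them in the 2 libraries). XY WT supporting cells lay in the Sertoli cluster 10 (67.8% in replicate 1 and 45.5% in replicate 2) and in cluster 13. In the -KTS KO, between 99.2% and 99.5% lay in cluster 5. Supporting cells of XX +KTS KO lay mainly in clusters 31 and 28 (51.2% and 26.1% in replicate 1, 26.0% and 51.9% in replicate 2), and at most 2.56% lay in cluster 3. Interstitial cells of XY WT lay mainly in clusters 9 and 12, those of XX WT in clusters 2 and 22, those of the -KTS KO in clusters 1 and 18, and those of the +KTS KO in cluster 2.

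The library labelled XY +KTS KO replicate 1 stood apart. It had 3278 supporting cells, of which 94.5% lay in cluster 8, while replicate 2 had 230 supporting cells, most of them in clusters 28 and 31. The summed level of 8 immediate early genes, a list written after cluster 8 had been seen, was 2605 CPM in the supporting cells of replicate 1 and between 387 and 1052 CPM in those of the other 11 libraries. In interstitial cells it was 3160 CPM in this library and between 541 and 1372 CPM in the others. The part of this difference in the results for XY +KTS KO was not tested.

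Dhh, which encodes desert hedgehog, lies on chromosome 15 from 98891152 to 98898540 on the minus strand of GRCm38. In the supporting cells of XY WT it reached 181 CPM in replicate 1 and 78.1 CPM in replicate 2. In XX WT it was at 0.629 and 0.652 CPM. Every XY WT library was thus far above every XX WT library, although the XY libraries also differed from each other.

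In the -KTS KO, Dhh was close to absent from supporting cells of either sex. The XY libraries held 0.144 and 0.0471 CPM, from 4 UMIs in all against 7815 in XY WT. The XX libraries held 0.0983 and 0 CPM, from 2 UMIs against 53 in XX WT. No -KTS KO library reached the lowest WT library of its sex.

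In the +KTS KO, Dhh took an intermediate level in both sexes. The XX libraries held 7.45 and 12.2 CPM, and the XY libraries 15.8 and 9.18 CPM. All 4 libraries lay above XX WT and below XY WT, and the ranges of the XX and XY libraries overlapped.

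**Figure D1:**
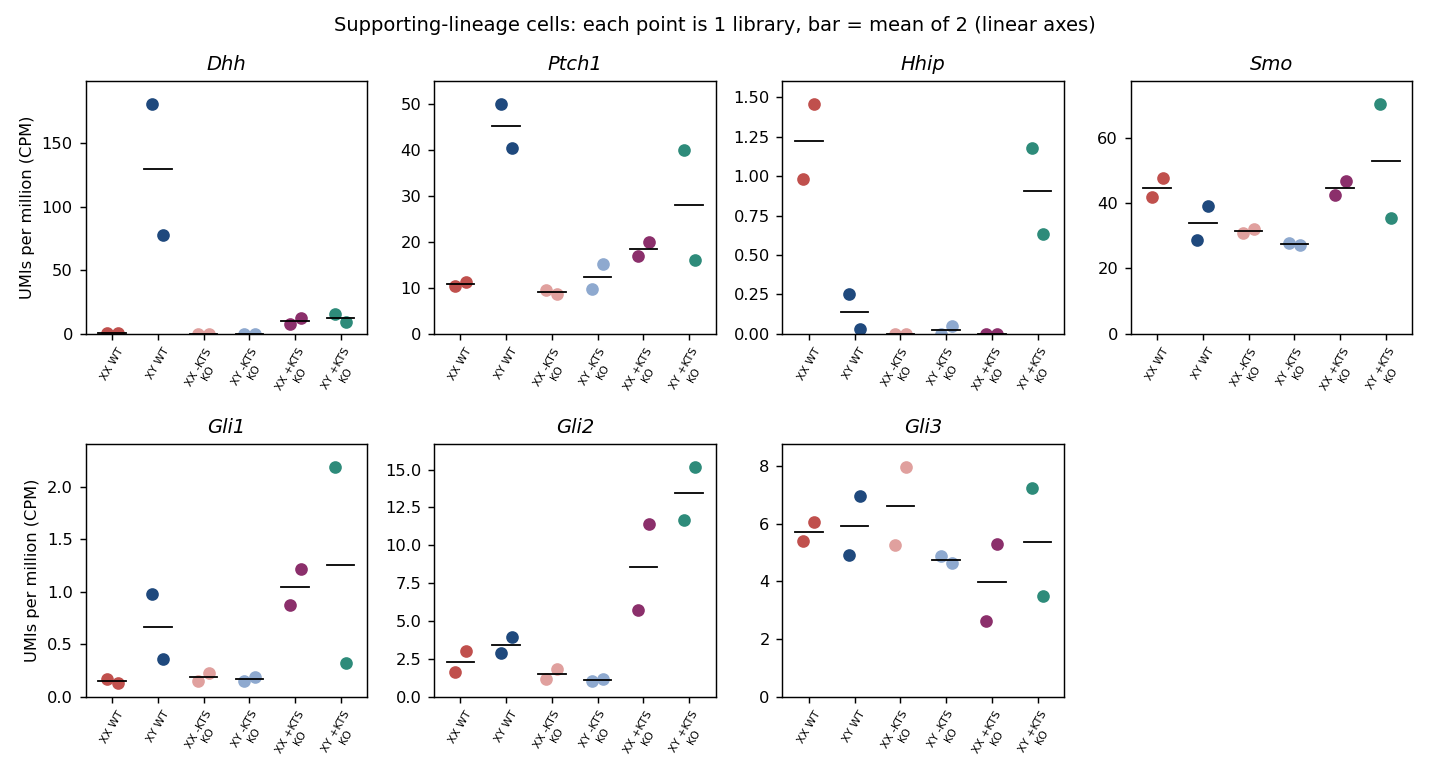
UMIs per 1000000 (CPM) of the Hedgehog genes in the supporting cells of each library, one panel a gene, with the 6 groups on the horizontal axis and 1 point per library. Dhh stands at 181 and 78.1 CPM in XY WT and at 15.8 CPM or less in the 10 other libraries, while Ptch1 is at 50.04 and 40.4 CPM in XY WT.

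Sums of UMIs over a group put sizes on these differences, with exact 95% intervals that cover counting error only. Dhh was 191 times as frequent in XY WT as in XX WT supporting cells (146 to 255). XY WT was 1288 times as high as XY -KTS KO (503 to 4727) and 8.05 times as high as XY +KTS KO (7.41 to 8.76). XX +KTS KO was 14.2 times as high as XX WT (9.72 to 20.8), and XX WT 10.8 times as high as XX -KTS KO (2.84 to 91.2). Folds against XY WT also depend on its 2 unequal libraries. In XY +KTS KO, cluster 8 of replicate 1 gave 530 Dhh UMIs, while clusters 28 and 31 of replicate 2 gave 16 and 5. The pooled fold of that group thus mainly follows replicate 1.

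Across libraries, with edgeR's quasi-likelihood test and Benjamini-Hochberg adjustment over all genes tested, Dhh passed the threshold of 0.05 in 4 of the 5 comparisons of supporting cells. It was higher in XY WT than in XX WT by 7.77 ± 0.51 on the log2 scale (SE, adjusted p = 1.2e-05). It fell by 10.35 ± 0.66 in XY -KTS KO (adjusted p = 3.2e-06) and by 3.48 ± 0.41 in XY +KTS KO (adjusted p = 0.00029), each against XY WT. The Sertoli cluster 10 held 5 cells or fewer in each library of the XY mutants, and the part of this in the falls was not tested. In XX +KTS KO Dhh rose by 3.88 ± 0.55 against XX WT (adjusted p = 0.0032). These 4 calls held under all 21 alternatives tried. Leaving out each of the 12 libraries is counted among them. For each comparison most of these libraries lay outside the compared groups, where leaving 1 out changes mainly the shared estimate of the spread. Without XY WT replicate 1 the changes were 6.94 for XY WT against XX WT, -9.51 in XY -KTS KO and -2.66 in XY +KTS KO, and without XY WT replicate 2 the first and the last were 8.30 and -4.01. The change in XY -KTS KO lay between -11.28 and -9.51 under all alternatives. The 2 comparisons of XY mutants share the XY WT libraries and the 2 of XX mutants share the XX WT libraries, so they are not independent of each other.

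The XX -KTS KO comparison fell short of the threshold in supporting cells (log2 change -3.22 ± 1.12, adjusted p = 0.071) and passed it under 5 of 21 alternatives, which were DESeq2 (adjusted p = 0.024), no filter on low counts, the replicate block (adjusted p = 0.042) and leaving out either XY WT library. Over all gonadal somatic cells Dhh fell in XX -KTS KO by 4.63 ± 0.76 (adjusted p = 0.0037), and this call held under all 21 alternatives. Supporting cells made up 46.0% and 45.4% of the kept cells in XX WT, but 19.4% and 14.1% in XX -KTS KO. The part of this in the fall over gonadal somatic cells was not tested. The effect of the +KTS KO differed between the sexes: the change in XY minus the change in XX was -7.36 ± 0.69 (adjusted p = 0.00072). As the XX and XY +KTS KO ranges of Dhh overlapped, most of this value is the WT difference of 7.77. For the -KTS KO the change in XY minus the change in XX was -7.13 ± 2.77 and did not pass (adjusted p = 0.16).

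Within the gonad, Dhh marked the Sertoli cluster. There it stood at 248.9 and 153.7 CPM in the 2 XY WT libraries, while the other main XY WT supporting cluster, cluster 13, had 9.66 and 8.76 CPM. After each cell had been thinned to 5000 UMIs, 54.6% ± 13.3 (SD, n = 2) of Sertoli cells of XY WT had a Dhh UMI, against 0.251% ± 0.070 of germ cells and 0.210% ± 0.128 of interstitial cells of the same libraries. Without thinning the shares were 75.9%, 1.52% and 0.671%. Thinning left out 131 of 2948 Sertoli cells, 50 of 2039 germ cells and 160 of 5484 interstitial cells, and the median depths of the 3 types were 10454 and 13390, 21913 and 26589, and 9903 and 12390 UMIs. In replicate 1 the thinned share was 0.301% of interstitial and 0.202% of germ cells, a type that should lack Dhh, and in replicate 2 it was 0.120% and 0.301%, so neither type was above the other in both libraries. Set against Amh, a Sertoli product, Dhh was at 36.1 and 63.8 UMIs per 100 Amh UMIs in Sertoli cells. Interstitial cells had 33 Dhh UMIs against 66 of Amh in replicate 1 and 8 against 18 in replicate 2, and germ cells 14 against 46 and 19 against 14. This ratio thus varied between types and libraries. The part of free RNA in the interstitial UMIs was not tested.

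The makeup of the supporting cells also differed between the XY WT libraries, and its part in the Dhh level was not tested. In replicate 1, 67.8% of supporting cells were in the Sertoli cluster and Amh stood at 501 CPM over all supporting cells. In replicate 2 these values were 45.5% and 123 CPM.

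Outside Sertoli cells, the +KTS KO gonads carried Dhh in several clusters. The cells led by Cyp11a1 stood at 11.6 and 9.86 CPM for XX +KTS KO, and at 10.9 CPM for XY +KTS KO replicate 2. Cluster 8, which was nearly all from XY +KTS KO replicate 1, had 15.4 CPM in that library. In cluster 28, the XX +KTS KO libraries had 8.87 and 13.8 CPM, and XY +KTS KO replicate 2 had 9.19 CPM. Cluster 31, the main supporting cluster of XX +KTS KO replicate 1, had 6.85 CPM in that library and 14.7 and 5.59 CPM in XY +KTS KO replicates 1 and 2. Adding the cells led by Cyp11a1 to the supporting cells, an alternative chosen after seeing the data, kept both +KTS KO calls for Dhh. The summed level of the Sertoli markers other than Dhh was 136 to 222 CPM in XX and 200 to 474 CPM in XY +KTS KO supporting cells, 85.1 to 95.3 CPM in XX WT and 2391 to 4120 CPM in XY WT.

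Endothelial cells had low levels of Dhh, with 4.36 and 6.31 CPM in XX WT and 1.27 and 1.54 CPM in XY WT. The class joined 2 clusters, and in cluster 17 the values were 5.96 and 9.07 CPM in XX WT and 2.98 and 2.63 CPM in XY WT. Cluster 30 held 240 of 412 and 126 of 267 XY WT endothelial cells, at 0 and 0.441 CPM, and 65 of 265 in XX WT replicate 2, at 0 CPM. After thinning, 4.0% and 4.2% of XX WT endothelial cells had a Dhh UMI, and no XX WT germ cell had one, which in 1343 cells allows a share with a UMI of up to 0.223% at that depth. Unthinned, the shares were 6.17% and 9.81% of endothelial and 0.216% and 0.425% of germ cells, whose median depths in replicate 1 were 15375.5 and 29857 UMIs. The other 8 libraries had between 0 and 2.95 CPM in endothelial cells.

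**Figure D2:**
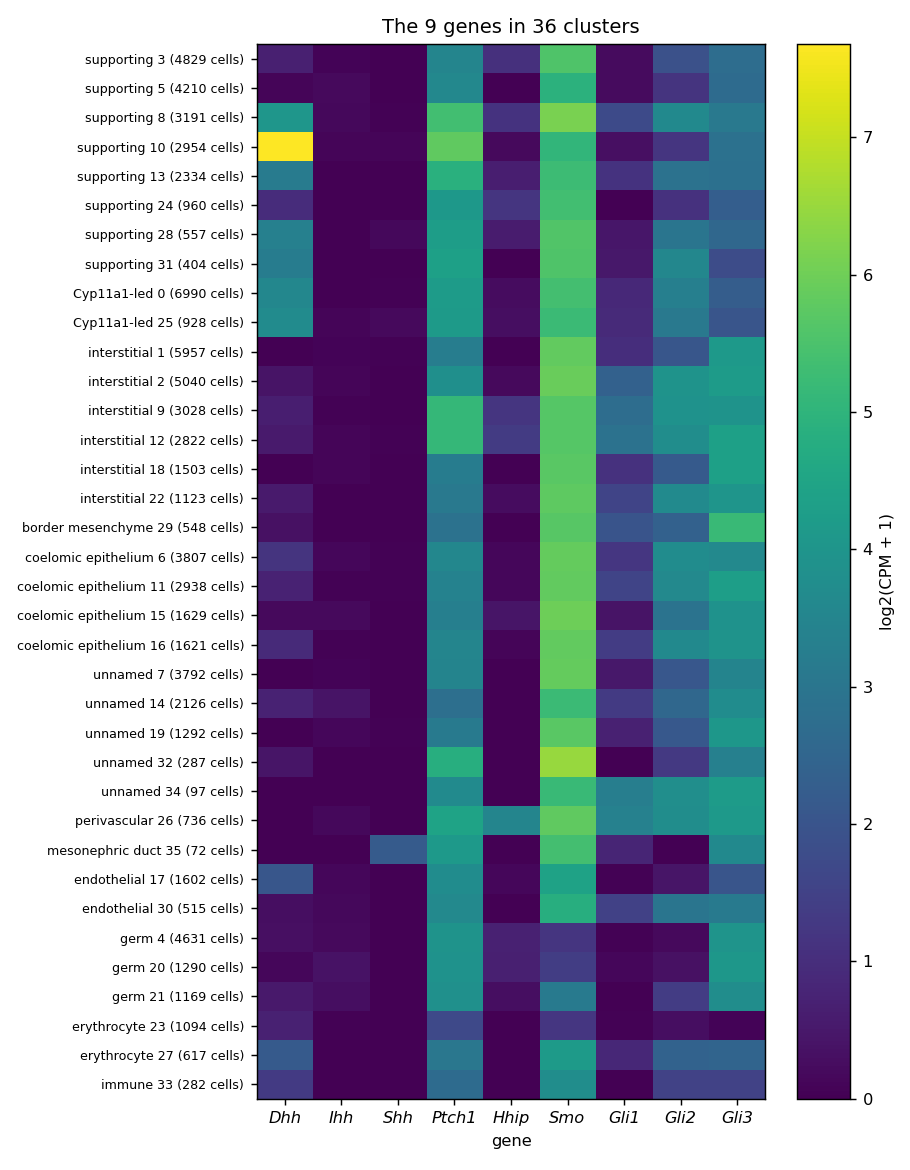
Level of the 9 genes in the 36 clusters, as log2(CPM + 1) over all libraries, with genes on the horizontal axis and clusters on the vertical axis with their cell numbers. Dhh is highest in the Sertoli cluster 10 (204 CPM), Ptch1 in the same cluster (54.5 CPM), Gli1 and Hhip in cluster 26 (9.45 and 10.2 CPM) and Shh in the mesonephric duct cluster 35 (3.61 CPM). Of the 736 cells of cluster 26, 728 came from XY +KTS KO replicate 2, as did 71 of the 72 cells of cluster 35.

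Over the 36 clusters, the genes whose log2(CPM + 1) followed that of Dhh most closely were Amh (Pearson's r = 0.95), Ankrd63 (0.93), Gm49442 (0.92), 5830411N06Rik (0.92) and Zan (0.92). Clusters share libraries and differ in depth, so these values describe the clusters only.

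The other ligands were almost silent. Ihh, which encodes Indian hedgehog (chromosome 1, 74945315 to 74951672), did not exceed 0.236 CPM in the supporting cells or 0.180 CPM in the interstitial cells of any library. Shh, which encodes sonic hedgehog (chromosome 5, 28456815 to 28467256), did not exceed 0.108 CPM and 0.125 CPM. The highest Shh among the clusters was in the mesonephric duct, at 3.61 CPM in 72 cells, from 5 UMIs that all came from XY +KTS KO replicate 2.

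Ptch1 encodes the main Hedgehog receptor (chromosome 13, 63508328 to 63573598, minus strand). In supporting cells, XY WT had 50.04 and 40.4 CPM and XX WT 10.4 and 11.3 CPM. The -KTS KO libraries had 9.44 and 8.73 CPM in XX and 9.78 and 15.1 CPM in XY. The +KTS KO libraries had 16.9 and 19.96 CPM in XX and 40.1 and 16.1 CPM in XY. Thus both XY WT libraries lay above all others, with XY +KTS KO replicate 1 next to them.

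Ptch1 was higher in XY WT than in XX WT supporting cells by 2.16 ± 0.31 on the log2 scale (adjusted p = 0.0006). It fell by 1.86 ± 0.31 in XY -KTS KO against XY WT (adjusted p = 0.00099), and both calls held under all 21 alternatives. The changes were -0.16 ± 0.31 in XX -KTS KO (adjusted p = 0.78), 0.75 ± 0.34 in XX +KTS KO (adjusted p = 0.25) and -0.79 ± 0.30 in XY +KTS KO (adjusted p = 0.083). The -KTS KO change differed between the sexes by -1.70 ± 0.43 (adjusted p = 0.038), and this call was lost under 13 of 21 alternatives, the replicate block among them (adjusted p = 0.052).

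In interstitial cells the Ptch1 values were 52.3 and 13.0 CPM in XY WT. XX WT had 5.24 and 10.1 CPM, XX -KTS KO had 8.05 and 8.06 CPM, and XY -KTS KO had 6.93 and 10.6 CPM. The +KTS KO libraries had 11.5 and 15.3 CPM in XX and 14.6 and 8.10 CPM in XY. One library, XY WT replicate 1, stood high, and replicate 2 lay among the mutant libraries.

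**Figure D3:**
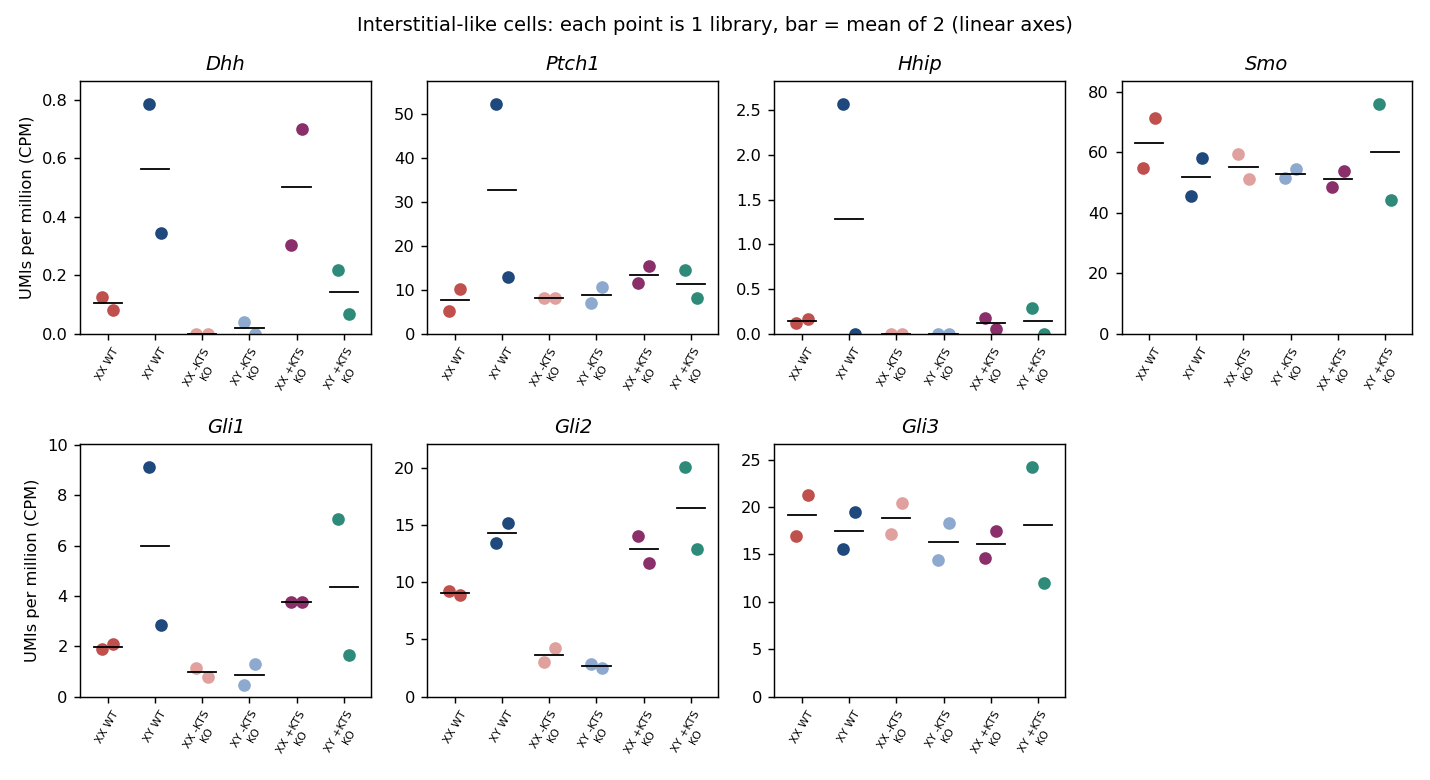
UMIs per 1000000 (CPM) of the Hedgehog genes in the interstitial cells of each library, one panel a gene, with the 6 groups on the horizontal axis and 1 point per library. Ptch1 and Gli1 are highest in XY WT replicate 1 (52.3 and 9.14 CPM), and Gli2 is at 4.27 CPM or less in the 4 -KTS KO libraries and at 8.88 CPM or more in the others.

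The sizes of the interstitial Ptch1 differences rested on 1 library. Ptch1 was higher in XY WT than in XX WT by 2.26 ± 0.57 (adjusted p = 0.038) and lower in XY -KTS KO than in XY WT by 2.07 ± 0.54 on the log2 scale (adjusted p = 0.018). Without XY WT replicate 1 the values were 0.83 (adjusted p = 0.34) and -0.62 (adjusted p = 0.29). The first call was lost under 7 of 21 alternatives, 6 of them left-out libraries, among them XX WT replicate 1 (adjusted p = 0.18) or 2 (adjusted p = 0.12) and the replicate block (adjusted p = 0.060), and the second without XY -KTS KO replicate 1 (adjusted p = 0.11) or 2 (adjusted p = 0.059). The 2 XY WT libraries differed within the same interstitial clusters, with 46.7 and 14.3 CPM in cluster 9 and 60.2 and 12.7 CPM in cluster 12, whereas in the Sertoli cluster they had 53.6 and 55.7 CPM.

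Germ cells of the 12 libraries had between 9.34 and 21.7 CPM of Ptch1. In thinned cells, 9.05% ± 1.96 of XY WT germ cells had a Ptch1 UMI, against 12.6% ± 9.06 of XY WT interstitial cells and 22.9% ± 1.15 of Sertoli cells (SD, n = 2). Unthinned shares were 33.1%, 23.2% and 41.6%, at the depths given for Dhh.

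Hhip encodes a membrane protein that binds Hedgehog ligands and keeps them from PTCH1 (chromosome 8, 79965851 to 80058006, minus strand). In supporting cells it was at 0.984 and 1.46 CPM in XX WT and at 0.253 and 0.0278 CPM in XY WT. No Hhip UMI was counted in supporting cells of either XX -KTS KO or either XX +KTS KO library. Cluster 0, the larger of the pair led by Cyp11a1, had 0.191 and 0.188 CPM in the XX +KTS KO libraries, from 7 and 5 UMIs. XY -KTS KO held 0 and 0.0471 CPM, and XY +KTS KO 1.18 and 0.634 CPM. The XX WT libraries thus lay above those of XY WT and of the -KTS KO.

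Against a floor of 3 UMIs over the group, supporting cells of XX -KTS KO had at least 13.9-fold lower Hhip than those of XX WT, and those of XX +KTS KO at least 2.92-fold lower. The first difference passed the edgeR test (adjusted p = 0.0083) and the second did not (adjusted p = 0.14). Leaving out XX -KTS KO replicate 1 ended the first call (adjusted p = 0.062). Hhip was lower in XY WT than in XX WT by 3.07 ± 0.76 on the log2 scale (adjusted p = 0.019), and DESeq2 did not call it (adjusted p = 0.090). That call was also lost without XX WT replicate 2 (adjusted p = 0.096) or XY WT replicate 2 (adjusted p = 0.086), and with the cells led by Cyp11a1 added (adjusted p = 0.052). XX WT was 9.93 times as high as XY WT in pooled UMIs (4.86 to 23.6). In XY +KTS KO it was higher than in XY WT by 2.76 ± 0.82 (adjusted p = 0.041), with 45 UMIs against 8, and this call was lost under 9 of 21 alternatives, among them leaving out XY +KTS KO replicate 1 (adjusted p = 0.48). In XY -KTS KO the change was -2.22 ± 1.44 (adjusted p = 0.29), from 1 UMI against 8.

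Interstitial Hhip came from 1 library. XY WT replicate 1 had 108 UMIs (2.57 CPM), XY WT replicate 2 had none, and the other 10 libraries had at most 4 UMIs each. In replicate 1 these UMIs lay mainly in cluster 12 (67 UMIs) and cluster 9 (40 UMIs), the clusters in which its Ptch1 was high.

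Because WT1 is a DNA-binding factor, the 250 bases before the annotated start of each gene were searched for motifs on both strands. RefSeq promoters on GRCm38.p6 matched 7 of the 9 genes (not Gli1 or Shh). The letters GCGGGGGCG, a motif bound by WT1 and by EGR1 and holding the GC-box core that SP factors bind, were in 2 of the 7, Gli2 and Hhip, and in 2.57% of all 32851 promoters of this length. No other motif was found in the 7 windows. These were the GLI motif GACCACCCA (0.225% of promoters), the WT1 motif GCGTGGGNG (1.65%), whose letters cannot match the same bases as the first, and the SOX motif AACAAT (9.42%). The promoters of Gli2 and Hhip are printed with the motif in capitals, beside that of Dhh, the gene with the largest change, which held none. They run from 5′ to 3′ on the strand of the gene, at chr1:119053620-119053869 for Gli2, chr8:80058009-80058258 for Hhip and chr15:98898541-98898790 for Dhh, all on the minus strand.
Gli2: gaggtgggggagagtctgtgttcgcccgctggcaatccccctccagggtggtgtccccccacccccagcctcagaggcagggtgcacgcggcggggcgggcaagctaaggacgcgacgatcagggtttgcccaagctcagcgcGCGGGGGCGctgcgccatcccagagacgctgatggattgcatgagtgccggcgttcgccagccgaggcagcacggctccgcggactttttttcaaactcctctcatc
Hhip: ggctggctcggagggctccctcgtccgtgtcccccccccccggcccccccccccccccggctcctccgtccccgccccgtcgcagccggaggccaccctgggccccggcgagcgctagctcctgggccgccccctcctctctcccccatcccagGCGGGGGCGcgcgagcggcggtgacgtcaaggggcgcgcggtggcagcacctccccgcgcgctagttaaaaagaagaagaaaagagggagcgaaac
Dhh: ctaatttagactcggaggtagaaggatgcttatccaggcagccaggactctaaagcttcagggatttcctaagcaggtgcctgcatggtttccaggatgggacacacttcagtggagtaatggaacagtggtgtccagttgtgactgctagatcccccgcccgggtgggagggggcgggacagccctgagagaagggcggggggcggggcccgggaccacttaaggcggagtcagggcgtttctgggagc

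In Gli2 the motif began 107 bases before the start (chr1:119053718-119053726) and in Hhip 96 bases before it (chr8:80058096-80058104). No binding was measured in these libraries, and a match is a description of the sequence.

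Smo, the transducer (chromosome 6, 29735503 to 29761365), was present in every gonadal class. Its level in supporting cells ran from 27.2 CPM in XY -KTS KO replicate 2 to 70.3 CPM in XY +KTS KO replicate 1, and in interstitial cells from 44.2 to 76.0 CPM. Germ cells had between 0.882 and 4.17 CPM. None of the 10 comparisons between groups passed the edgeR test for Smo, with log2 changes between -0.41 and 0.52. At an unadjusted p under 0.05 there was 1, XY +KTS KO supporting cells, and DESeq2 called none. Gli3, which encodes a factor that mainly represses in the absence of signal (chromosome 13, 15463235 to 15730026), did not pass in any of the 10 comparisons by edgeR, adjusted or not, or by DESeq2, with log2 changes between -0.62 and 0.29. It ran from 11.9 to 24.3 CPM in interstitial cells and from 2.63 to 7.97 CPM in supporting cells, and was highest in a cluster with the markers of mesonephric border mesenchyme (36.2 CPM).

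Gli1, the GLI factor whose own transcription follows the signal (chromosome 10, 127329882 to 127341974, minus strand), was higher in interstitial than in supporting cells. Its values in interstitial cells were 9.14 and 2.84 CPM in XY WT and 1.87 and 2.08 CPM in XX WT. XX -KTS KO had 1.15 and 0.777 CPM, and XY -KTS KO had 0.446 and 1.30 CPM. In the +KTS KO they were 3.76 and 3.76 CPM in XX and 7.04 and 1.65 CPM in XY. The 4 -KTS KO libraries were the lowest of the 12, and replicate 1 of XY WT and of XY +KTS KO the highest.

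Interstitial Gli1 fell by 2.92 ± 0.70 on the log2 scale in XY -KTS KO against XY WT (adjusted p = 0.012). Without XY WT replicate 1 the change was -1.73 (adjusted p = 0.13), and without XY -KTS KO replicate 1 it was -2.38 (adjusted p = 0.082). The other interstitial changes of Gli1 were 1.79 ± 0.71 for XY WT against XX WT (adjusted p = 0.16), -0.93 ± 0.78 in XX -KTS KO (adjusted p = 0.51), 0.97 ± 0.73 in XX +KTS KO (adjusted p = 0.77) and -0.66 ± 0.64 in XY +KTS KO (adjusted p = 0.52). In thinned cells, 2.80% ± 1.84 of XY WT interstitial cells had a Gli1 UMI (SD, n = 2; 6.37% unthinned), and 0.0504% ± 0.0713 of XY WT germ cells did (0.196% unthinned). Coelomic epithelial cells of XY WT had a share of 1.77% ± 2.50 (4.88% unthinned), with 28 UMIs in replicate 1 and 3 in replicate 2.

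In supporting cells Gli1 was at 0.976 and 0.361 CPM in XY WT and at 0.164 and 0.131 CPM in XX WT, a log2 difference of 2.24 ± 0.69 (adjusted p = 0.038). This rested on 40 UMIs against 12, and was lost under 14 of 21 alternatives, DESeq2 (adjusted p = 0.078) and 9 of the 12 left-out libraries among them. Without XY WT replicate 1 the difference was 1.29 (adjusted p = 0.36).

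Across the 36 clusters, the genes that followed Gli1 most closely were Spon1 (Pearson's r = 0.86), Pakap (0.85), Mgp (0.84), Col6a3 (0.82) and Cap2 (0.82). Mgp and Col6a3 encode proteins of the extracellular matrix.

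Gli2 encodes the main activating GLI factor (chromosome 1, 118834132 to 119053619, minus strand). In WT interstitial cells it was at 9.24 and 8.88 CPM in XX and at 13.5 and 15.2 CPM in XY. In the -KTS KO it was at 2.98 and 4.27 CPM in XX and at 2.88 and 2.54 CPM in XY. In the +KTS KO it was at 14.1 and 11.7 CPM in XX and at 20.1 and 12.9 CPM in XY. All 4 -KTS KO libraries lay below all 8 others.

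Gli2 fell in interstitial cells of both -KTS KO sexes, by 1.30 ± 0.24 in XX (adjusted p = 0.0069) and by 2.53 ± 0.24 in XY (adjusted p = 7.6e-05), on the log2 scale. The XY call held under all 21 alternatives, with changes between -2.63 and -2.43, and the XX call was lost without XX -KTS KO replicate 1 (log2 change -1.06, adjusted p = 0.077). The -KTS KO changes of the sexes differed by -1.23 ± 0.34, which did not pass (adjusted p = 0.11). In the +KTS KO the interstitial changes were 0.56 ± 0.23 in XX (adjusted p = 0.43) and 0.08 ± 0.22 in XY (adjusted p = 0.83). XY WT against XX WT gave 0.80 ± 0.23 (adjusted p = 0.057), and passed under 5 of 21 alternatives, DESeq2 among them (adjusted p = 0.028).

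In supporting cells, where Gli2 was lower, it was at 1.61 and 2.98 CPM in XX WT and at 2.89 and 3.91 CPM in XY WT. The +KTS KO libraries held 5.70 and 11.4 CPM in XX and 11.7 and 15.2 CPM in XY. The -KTS KO libraries held 1.13 and 1.82 CPM in XX and 1.01 and 1.18 CPM in XY. Every +KTS KO library lay above every WT library, and both XY -KTS KO libraries below both of XY WT.

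Gli2 thus rose in +KTS KO supporting cells, by 1.83 ± 0.41 in XX (adjusted p = 0.028) and by 1.81 ± 0.37 in XY (adjusted p = 0.0064), and fell by 1.62 ± 0.40 in XY -KTS KO (adjusted p = 0.011). The XX -KTS KO change was -0.58 ± 0.41 (adjusted p = 0.37). The XX +KTS KO call was lost without XX WT replicate 1 (adjusted p = 0.16) or either XX +KTS KO library (adjusted p = 0.052 and 0.24), which together held 522 supporting cells. The XY +KTS KO call was lost without XY WT replicate 1 (adjusted p = 0.050), and the XY -KTS KO call without XY WT replicate 2 (adjusted p = 0.050) or either XY -KTS KO library (adjusted p = 0.072 and 0.053).

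**Figure D4:**
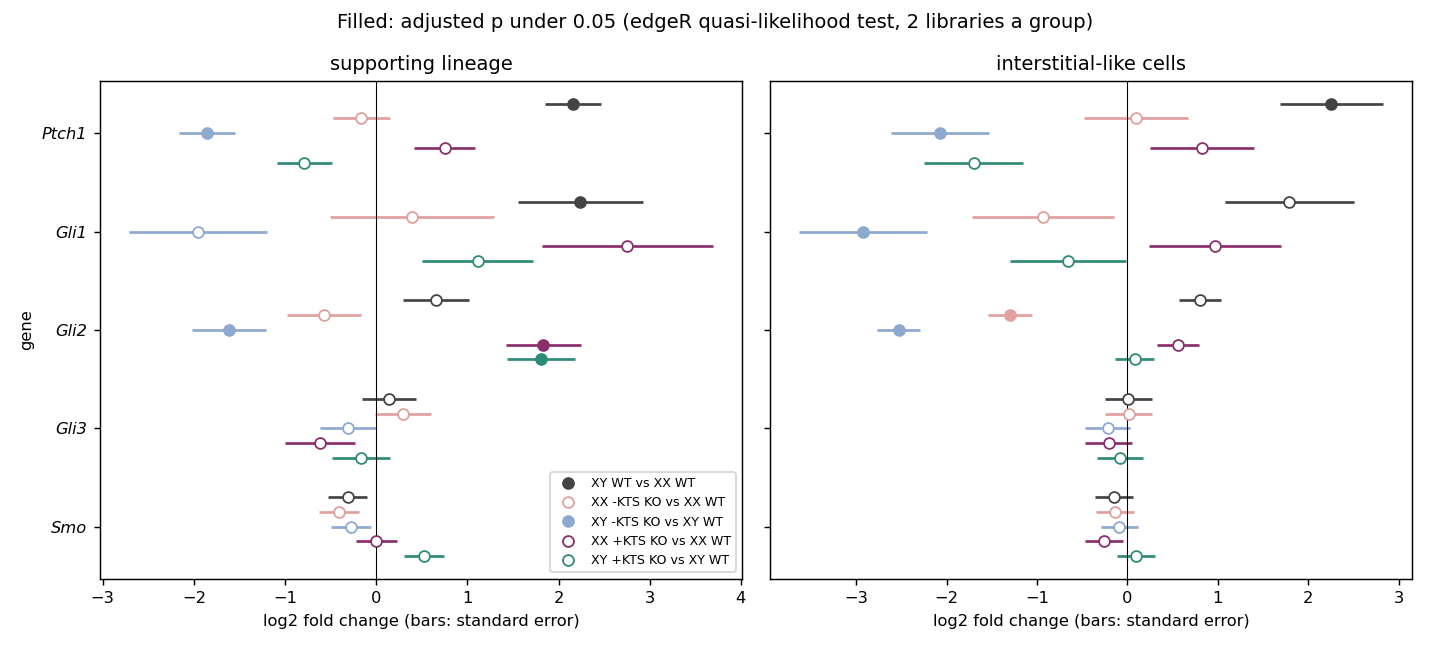
Log2 fold changes (points) with standard errors (bars) of Ptch1, Gli1, Gli2, Gli3 and Smo in supporting cells (left) and interstitial cells (right) for the 5 comparisons, with filled points for an adjusted p under 0.05 in the edgeR test of 2 libraries a group. Gli2 is filled at -2.53 in XY and -1.30 in XX -KTS KO interstitial cells, and no point of Gli3 or Smo is filled.

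Counted over the members, 4 of the 7 tested in supporting cells passed for XY WT against XX WT, where 22% of all genes did. For XY WT against XX WT, all genes means the autosomal ones in each cell type, in supporting cells 14779 against 15336 in the other comparisons. In XX -KTS KO 1 of 7 passed (17.8% of all genes), in XY -KTS KO 3 of 7 (29.9%), in XX +KTS KO 2 of 7 (4.68%) and in XY +KTS KO 3 of 7 (22.9%). Of the 6 members tested in interstitial cells, 1 passed for XY WT against XX WT (7.26% of all genes), 4 in XY -KTS KO (24.4%) and 1 in XX -KTS KO (11%). None passed in XX +KTS KO (0.73%) or in XY +KTS KO (11.4%) by edgeR. At an unadjusted p under 0.05 there were Gli2 in XX and Ptch1 and Dhh in XY, and DESeq2 called Ptch1 in XY +KTS KO (log2 change -1.75, adjusted p = 0.0078). These counts stand beside the share of all genes and were not tested against it. The 4 members that passed in XY -KTS KO interstitial cells were Gli2, Gli1, Ptch1 and Dhh, and the Dhh UMIs there were 1 against 41. Since the Dhh share of XY WT interstitial cells was above that of germ cells in 1 of the 2 libraries only, the count is also given without Dhh, which leaves 3 members. The Dhh call was lost without XY WT replicate 1 (adjusted p = 0.074) or XY -KTS KO replicate 2 (adjusted p = 0.073).

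Over all gonadal somatic cells, 1 of 7 members passed in XX -KTS KO (Dhh, 15.7% of all genes), 5 in XY -KTS KO (23.1%), 2 in XX +KTS KO (5.01%), 1 in XY +KTS KO (12%) and 4 for XY WT against XX WT (12.8%). In the test of a difference between the sexes in a mutant's effect, supporting cells gave 1 of 7 for the -KTS KO (Ptch1, 7.16% of all genes) and 2 of 7 for the +KTS KO (Dhh and Hhip, 6.25%). All gonadal somatic cells gave 1 of 7 each (Gli2, 2.87%, and Dhh, 3.87%). Interstitial cells gave none of 6 for either mutant by edgeR (1.22% and 1.54%), where 2 of 6 had an unadjusted p under 0.05 for each mutant, and DESeq2 passed 1 each (Gli2 for the -KTS KO and Ptch1 for the +KTS KO).

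The ligand in supporting cells and the response in interstitial cells were then set side by side in each library. Dhh ranked the groups from the -KTS KO (at most 0.144 CPM) over XX WT (at most 0.652 CPM) and the +KTS KO (7.45 to 15.8 CPM) to XY WT (78.1 CPM and above). Interstitial Gli1 was at most 1.30 CPM in the -KTS KO, 1.87 and 2.08 CPM in XX WT, 1.65 to 7.04 CPM in the +KTS KO and 2.84 to 9.14 CPM in XY WT. The -KTS KO range of Gli1, over both sexes, did not overlap with XX WT, but the edgeR test of XX -KTS KO against XX WT did not pass. The +KTS KO range of Gli1 overlapped with XY WT and also took in both XX WT values. Interstitial Ptch1 in the -KTS KO (6.93 to 10.6 CPM) overlapped with XX WT (5.24 and 10.1 CPM) and, at the lower end, with the +KTS KO (8.10 to 15.3 CPM). Of the XY WT libraries, the lower lay within the +KTS KO range of Ptch1 and the higher above it. The libraries fall into groups on both axes, so no correlation over the 12 is given.

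**Figure D5:**
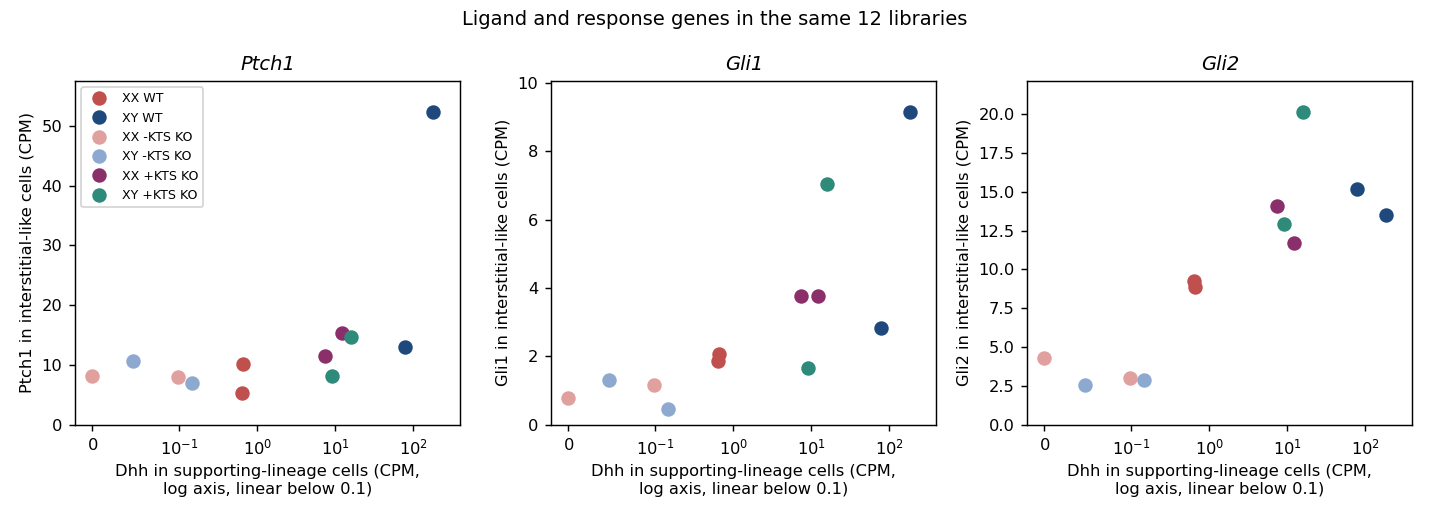
Interstitial Ptch1, Gli1 and Gli2 (vertical axes, CPM) against Dhh in the supporting cells of the same library (horizontal axis, CPM on a log scale that is linear below 0.1), with 1 point per library and colours for the 6 groups. The 4 -KTS KO libraries lie at the left with Dhh at 0.144 CPM or less and Gli2 at 4.27 CPM or less, and Ptch1 of XY WT is at 52.3 CPM in one library and at 13.0 CPM in the other.

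Supporting and interstitial cells were also compared within libraries, with the library as a block. Of the 7 members, 6 differed in XX WT (51% of all genes did), 6 in XY WT (58.2%), 4 in XY -KTS KO (50.1%), 4 in XX -KTS KO (48.1%), 5 in XY +KTS KO (46.1%) and 3 in XX +KTS KO (41.1%). Gli1 and Gli3 were lower in supporting cells in all 6 groups, Gli1 by 1.77 to 3.68 and Gli3 by 1.46 to 2.13 on the log2 scale. Of these 12 calls, the 6 of Gli3 and those of Gli1 in both WT groups held under all 20 alternatives. The other 4 of Gli1 were each lost without 1 library of their own group, and that of XX +KTS KO also with log-normalized values (adjusted p = 0.071).

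Dhh was higher in supporting than in interstitial cells by 2.66 ± 0.56 in XX WT, 7.78 ± 0.14 in XY WT, 4.28 ± 0.27 with XX +KTS KO and 6.35 ± 0.28 with XY +KTS KO, with adjusted p between 1.1e-11 and 0.002. The XX WT call was lost without XX WT replicate 2 (adjusted p = 0.089) and with log-normalized values (log2 difference 2.05, adjusted p = 0.0502). In the -KTS KO the differences were 3.72 ± 1.35 in XX (adjusted p = 0.075) and 2.10 ± 0.93 in XY (adjusted p = 0.15), from 2 and 4 Dhh UMIs in supporting cells. Ptch1 differed in 1 of the 6 groups, XY +KTS KO (1.28 ± 0.36, adjusted p = 0.010), and that call was lost under 3 of 20 alternatives, among them leaving out replicate 1 of that group (adjusted p = 0.31). In XY WT the difference was 0.65 ± 0.27 (adjusted p = 0.055), and it passed under 8 of 20 alternatives, with 1.60 (adjusted p = 1.4e-05) without XY WT replicate 1. Gli2 was lower in supporting cells of WT and -KTS KO gonads, by 1.18 to 2.12, and the 2 -KTS KO calls were lost without either library of their group (adjusted p between 0.081 and 0.22). In the +KTS KO the differences were -0.71 ± 0.36 in XX (adjusted p = 0.13) and -0.44 ± 0.28 in XY (adjusted p = 0.22). Smo was lower in supporting cells of the same 4 groups, by 0.46 to 0.83, and the XX WT call was lost without XX WT replicate 2 (adjusted p = 0.089). Hhip was higher in supporting than in interstitial cells of XX WT (3.08 ± 0.81, adjusted p = 0.0099) and XY +KTS KO (2.40 ± 0.87, adjusted p = 0.048), and lower in XY WT (-3.08 ± 0.67, adjusted p = 0.0031). The XX WT call was lost under 5 of 20 alternatives, among them DESeq2 (adjusted p = 0.22) and leaving out XX WT replicate 1 (adjusted p = 0.052) or 2 (adjusted p = 0.15). The XY WT value turned to 2.50 (adjusted p = 0.53) without replicate 1, the library that held all interstitial Hhip of its group, and DESeq2 did not call it (log2 change -1.52, adjusted p = 0.60). The XY +KTS KO value turned negative under 2 other clusterings, and the call was lost under 6 further alternatives, 4 of them left-out libraries and DESeq2 among the rest (adjusted p = 0.21).

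Around these genes, 28 further components and targets of the pathway were followed, of which 25 could be tested in each cell type. Their single calls were not followed under the alternatives used for the 9 members. In supporting cells, 4 rose and 5 fell in XY -KTS KO (13.1% and 16.8% of all genes), 1 rose and 4 fell in XX -KTS KO (7.96% and 9.79%), 8 rose and 3 fell in XY +KTS KO (10.1% and 12.7%), and 1 rose and 3 fell in XX +KTS KO (2.43% and 2.24%). XY WT against XX WT had 3 higher and 5 lower (12.2% and 9.78%). The median log2 change of the list was 0.08 in XY -KTS KO, -0.22 in XX -KTS KO, 0.49 in XY +KTS KO, -0.50 in XX +KTS KO and -0.40 for XY WT against XX WT, while that of all genes lay between -0.03 and 0.03.

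Among the co-receptors, Gas1, whose product helps ligand bind PTCH1, rose in the supporting cells of both -KTS KO sexes. It stood at 245 and 196 CPM in XX and 208 and 253 CPM in XY -KTS KO, and at 63.1 CPM or less in the 4 WT libraries. The log2 changes were 2.22 ± 0.31 in XX (adjusted p = 0.00065) and 2.73 ± 0.31 in XY (adjusted p = 9.6e-05). In interstitial cells, too, Gas1 was at 367 to 502 CPM in the -KTS KO and at 100.3 to 214 CPM in WT, with changes of 1.46 ± 0.28 in XX (adjusted p = 0.0074) and 1.80 ± 0.28 in XY (adjusted p = 0.0012).

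The co-receptors Cdon and Boc rose in XY +KTS KO against XY WT, in supporting cells (Cdon by 1.58 ± 0.26 and Boc by 1.48 ± 0.25, adjusted p = 0.0017 and 0.0019) and in interstitial cells (by 1.52 ± 0.40 and 1.33 ± 0.34, adjusted p = 0.035 and 0.029). In interstitial cells replicate 1 led, with 30.3 CPM of Cdon and 31.1 CPM of Boc against 9.27 and 11.2 CPM in replicate 2 and 8.08 and 8.60 CPM in the higher XY WT library. The supporting calls were not followed without replicate 1, which held 3278 supporting cells against 230 in replicate 2. In XX +KTS KO the changes did not pass, with 0.57 ± 0.26 for Cdon and -0.0074 ± 0.26 for Boc in supporting cells (adjusted p = 0.27 and 0.998) and 0.43 ± 0.41 and -0.07 ± 0.35 in interstitial cells (adjusted p = 0.84 and 0.99). Cdon also rose in XY -KTS KO supporting cells, by 0.82 ± 0.25 (adjusted p = 0.029).

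Scube1 and Scube2 encode secreted proteins that help release lipid-bearing Hedgehog ligand. Scube2 was at 5.13 and 4.69 CPM in the supporting cells of XY WT and at 0.657 CPM or less in those of the 10 other libraries. It was higher in XY WT than in XX WT by 3.84 ± 0.50 (adjusted p = 0.00034), and fell by 6.53 ± 0.70 in XY -KTS KO (adjusted p = 6.4e-05) and by 3.66 ± 0.57 in XY +KTS KO (adjusted p = 0.0014). The size of the fall in XY -KTS KO rests on few UMIs. Scube1 was at 14.1 and 16.5 CPM in XX WT and 30.2 and 36.6 CPM in XY WT. It was at 6.29 CPM or less in the -KTS KO and at 58.4 CPM or more in the +KTS KO, outside the WT range of 14.1 to 36.6 CPM in each of the 8 mutant libraries. It fell by 1.29 ± 0.21 in XX and 2.70 ± 0.22 in XY -KTS KO (adjusted p = 0.0019 and 1.1e-05) and rose by 2.25 ± 0.21 in XX +KTS KO (adjusted p = 0.00053).

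Of the targets, the cell cycle gene Ccnd1 was at 70.2 and 58.5 CPM in XY WT supporting cells and at 3.76 and 1.32 CPM in XY -KTS KO, a fall of 4.66 ± 0.63 (adjusted p = 0.00027). In XX -KTS KO it fell by 2.38 ± 0.59 (adjusted p = 0.017). Mycn fell by 2.15 ± 0.39 in XX +KTS KO (adjusted p = 0.010), from 48.2 and 41.2 CPM to 10.96 and 8.55 CPM.

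In interstitial cells, 4 of the 25 rose and 5 fell in XY -KTS KO (11.8% and 12.6% of all genes), 1 rose and 4 fell in XX -KTS KO (4.51% and 6.5%), 3 rose and 1 fell in XY +KTS KO (5.67% and 5.69%) and 1 was higher and none lower in XY WT than in XX WT (3.31% and 3.95%). In XX +KTS KO none passed the edgeR test in either direction (0.273% and 0.457%), 1 (Scube1) had an unadjusted p under 0.05, and DESeq2 called none. The medians of the list were 0.13, 0.07, 0.36, -0.23 and 0.06 in that order, and those of all genes lay between -0.02 and 0.05. Scube1 fell in interstitial cells as well, by 1.85 ± 0.32 in XX and 1.58 ± 0.31 in XY -KTS KO (adjusted p = 0.0041 and 0.0044). Foxf1, a target in mesenchyme, was higher in XY -KTS KO by 3.49 ± 0.79 (adjusted p = 0.009), at 1.13 and 1.61 CPM against 0.119 and 0.0860 CPM. The XY WT values of Foxf1 rest on few UMIs. Ccnd1 fell by 1.18 ± 0.31 in XX (adjusted p = 0.033) and 2.02 ± 0.31 in XY -KTS KO (adjusted p = 0.0012).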

How the data were processed

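Gonads of E12.0 mouse embryos were profiled with 10x Genomics 3′ single-cell RNA sequencing, in 2 libraries for each of 6 groups taken from the labels. The authors deposited raw UMI counts per gene and barcode, made with Cell Ranger 6.0 on mm10 (GRCm38) and not normalized. Counts are per gene and by the 3′ end, so splice variants were not resolved. The sources differ on whether the kit was version 2 or 3. The members and gene lists, and the tests, were chosen with earlier results of these data known.

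A cell had to have 1000 or more genes and no more than 10% of its UMIs from mitochondrial genes, which 83513 of 103730 barcodes did. The highest Scrublet scores (scanpy 1.11.5) were removed as doublets at 0.8% per 1000 barcodes, which left 76975 cells. The threshold that Scrublet sets by itself was not used, as it called 3 barcodes or fewer in 6 libraries. Cells were clustered with sctransform 0.4.2 and Seurat 5.3.0 (3000 variable genes without the 37 Hedgehog genes, 50 principal components, 20 neighbours, resolution 0.8). Clusters were named when at least 3 markers were raised and detected in 20% of cells, rules that were set once the clusters were known. Dhh was left out of the Sertoli markers. 5 clusters (7594 cells) stayed unnamed.

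UMIs were summed per library and class and tested across libraries with edgeR 4.0.16 (quasi-likelihood, TMM, filterByExpr, all 6 groups in a fit, FDR 0.05), in R 4.3.3. The fits were first run on simulated counts with the same spread for every gene and no outlying library, a setting unlike these data. CPM are UMIs per 1000000 of the class in that library. Supporting and interstitial cells were compared with the library as a block. DESeq2 1.42.0, other size factors, no filter, other clusterings, more doublets removed, each library left out and a replicate block were alternatives, and adding the cells led by Cyp11a1 or the border mesenchyme was chosen after seeing the data. The named genes are the 9 members, of the other pathway genes at most the 5 with the largest change that passed in a comparison, and the 5 genes most like Dhh and Gli1. The labels do not say what the replicate numbers mark, and the libraries were not treated as pairs. Replicate libraries were no duplicates (chi-square per degree of freedom between 48.6 and 193). Python 3.11.15, numpy 2.4.6, scipy 1.17.1, pandas 2.3.3 and matplotlib 3.10.9 were used, and gene positions came from GENCODE M21. Intervals and floors of 3 UMIs cover counting error only.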

Additional observations from a re-analysis of the deposited data

Results flagged for a closer look

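For 5 values, the effect of a mutation differed between the sexes by an interaction test in edgeR (the change in XY minus the change in XX, on the log2 scale). In supporting cells, the +KTS KO effect on Dhh differed by -7.36 (adjusted p = 0.00072), a rise in XX against a fall in XY, and over all gonadal somatic cells by -6.91 (adjusted p = 0.00033). The XX and XY +KTS KO libraries overlapped in supporting-cell Dhh, so the first value mostly restates the difference of 7.77 between XY WT and XX WT. The -KTS KO effect on Ptch1 in supporting cells differed by -1.70 (adjusted p = 0.038), and that on Gli2 over gonadal somatic cells by -1.56 (adjusted p = 0.021). The +KTS KO effect on Hhip in supporting cells differed by 10.50 (adjusted p = 0.036), where no UMI was counted in XX +KTS KO, so that its size depends on the prior count and is no bound. Among the members, 1 of 7 passed this test in supporting cells for the -KTS KO and 2 of 7 for the +KTS KO, where 7.16% and 6.25% of all genes passed. Over gonadal somatic cells it was 1 of 7 for each (2.87% and 3.87%). Both Dhh differences held under all 21 alternatives, and the other 3 were lost under 7 to 13.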

How the results depend on the processing

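Of 65 member results past the threshold, 32 kept their side of it and their direction under every alternative, 19 were lost only when a library was left out, and 14 under another alternative. Of 116 not past it, 39 gained a call under some alternative, in the direction of the main value. The Dhh calls in supporting cells, the XY -KTS KO and XY WT calls of Ptch1 there and the interstitial Gli2 call in XY -KTS KO were among the 32. A value changed sign for Hhip between supporting and interstitial cells, in XY WT (2.50 without replicate 1, and down to -3.32 with another library left out) and in XY +KTS KO with log-normalized values (-0.89) and at resolution 1.2 (-0.31). The cause was not tested.

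Over the 5 comparisons between groups, interstitial cells had 6 member calls, 13 without the filter and 2 to 9 with a library left out. Supporting cells had 13, 19 without the filter and 10 to 15 with a library left out. Without the filter more members could be tested. Differences between the sexes had 5 calls, 15 with DESeq2, 15 without the filter, 3 with the replicate block, and 2 to 13 with a library left out, where the lone library of a group was assumed to vary like the others. The replicate block gave 5 calls in interstitial, 13 in supporting and 14 in gonadal somatic cells (13 without it). Same-numbered libraries had correlations between -0.21 and 0.17, not all over 0.1, and the labels do not say what the numbers mark, so the libraries were not treated as pairs.

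The number of all genes called moved by more than 1.5 times in some comparisons. In supporting cells, XX +KTS KO against XX WT had 717, 1779 without the filter, 1174 with log-normalized values and 1405 with the cells led by Cyp11a1 added, and XY +KTS KO had 3505 and 1869 with log-normalized values. In interstitial cells, XX +KTS KO had 107, 303 with DESeq2, 836 without the filter, 49 with log-normalized values and 69 at resolution 1.2. XX -KTS KO had 1613, 2595 without the filter and 969 with log-normalized values, XY +KTS KO 1664, 2867 without the filter and 1102 at resolution 0.4, and XY WT against XX WT 1025, 2052 and 581. With all kept cells, the gonadal somatic counts fell from 2779 to 1463 in XX -KTS KO, 4083 to 2409 in XY -KTS KO, 886 to 447 in XX +KTS KO and 2179 to 1127 for XY WT against XX WT. Leaving out a library gave 175 to 5298 in supporting and 3 to 4279 in interstitial cells.

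With 2 libraries a group, a few UMIs decide the values of Hhip and of Gli1 in supporting cells, and a missed call there does not show that groups were alike.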

Other observations

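Cluster 26 (736 cells), led by Hoxc10, Hoxa10 and Alx1, had the highest Hhip (10.2 CPM) and Gli1 (9.45 CPM) of the 36 clusters and 20.9 CPM of Ptch1. Of its cells, 728 came from XY +KTS KO replicate 2 alone, and it was part of neither the supporting nor the interstitial cells. The mesonephric duct cluster 35 had 3.61 CPM of Shh (5 UMIs, all from the same library) and no Dhh UMI.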
